A study of Junonia coenia with 38 samples.

Results

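Late pupal wings of the buckeye butterfly Junonia coenia were compared with wings of the last larval instar, the 5th, to describe the net change in transcript levels over wing metamorphosis. The comparison rests on 12 of the 38 libraries of the series: 3 late pupal forewings, 3 late pupal hindwings, 3 larval forewings and 3 larval hindwings, chosen by the stage and wing in their labels. Another 12 libraries, 3 of each wing from prepupae and from pupae 72 h after pupation, entered the same model and are used to place the larval and late values in time. The other 14 libraries, which the labels tie to genome annotation, were not analysed here. The late stage carries 2 ages in the labels, 6 days after pupation and day 7, so it is called late pupa. All animals were kept at about 27 °C, RNA came from whole wings, and poly-A RNA was selected. The labels give no strain, sex, treatment or number of animals per library, and do not say whether libraries came from separate animals. The p-values therefore measure the spread between libraries. That spread is estimated for each model over all 24 libraries of the fit. Standard errors and p-values thus also carry the scatter of the prepupal and 72 h libraries.

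A butterfly wing grows as an internal disc in the caterpillar, where cells divide and the pattern of the adult wing is laid down. At pupation the disc everts, and during the pupal stage the epithelium forms scales, deposits cuticle and, towards the end, makes pigment. The moulting hormone ecdysone and its receptor EcR time these steps, and the series title names EcR and the transcription factor spineless. The deposited table names gene models by contig and by first and last position, without gene names, so no role can be given to a model, and the labelled tissue was not checked against wing markers. Exons, introns and untranslated regions were not assigned, the genome build is not given in the sources used here, and no sequence was used. In whole wings, a change in the number of cells of a type and a change in RNA per cell cannot be told apart.

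Late pupal libraries held between 8316939 and 12775785 counts and larval libraries between 8678215 and 21284939. Of 19234 models, 13282 had enough counts to be tested, and these took up at least 99.9% of each library's counts. Levels are given in CPM, the counts of a model relative to its library's total after scaling by TMM factors. The factors were 0.857 to 0.952 in late pupal and 1.64 to 1.80 in larval libraries. CPM is not divided by transcript length, so levels are compared between libraries and not between models. Replicates differed by more than sampling noise, with a chi-square per degree of freedom of 30.1 to 62.2 in pairs of one group, so none was counted as a copy of another. Their median SD of log2 CPM, over models whose group mean reached 3 on that scale, was 0.199 in late forewings, 0.210 in late hindwings, 0.153 in larval forewings and 0.151 in larval hindwings.

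Most transcripts changed, and they changed alike in both wings. In forewings 8323 models were called at an edgeR adjusted p below 0.05, 62.7% of those tested, with 4050 (30.5%) higher and 4273 (32.2%) lower in the late pupa. Of the 8271 called in hindwings (62.3%), 3965 (29.9% of those tested) were higher and 4306 (32.4%) lower. A change shown to exceed 2-fold, by a test against that size, was called for 4840 models of the forewing (36.4%), of which 2634 (19.8%) were higher and 2206 (16.6%) lower. In hindwings 4835 were called (36.4%), 2595 (19.5%) higher and 2240 (16.9%) lower. Both wings were called higher for 3701 models (27.9%), lower for 3860 (29.1%) and in opposite directions for 1 (0.00753%). The 7561 models called alike make up 90.8% of the forewing calls and 91.4% of the hindwing calls. Forewing and hindwing libraries of the same stage and number deviated together (r of 0.602 to 0.765). Calls in the 2 wings are therefore not independent of each other. A further 761 models were called in forewings only and 709 in hindwings only, and 4250 (32.0%) in neither wing. Over the 7561, the log2 fold changes of the wings differed by a median of 0.22, and by more than 1 in 754 (9.97%).

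**Figure D1:**
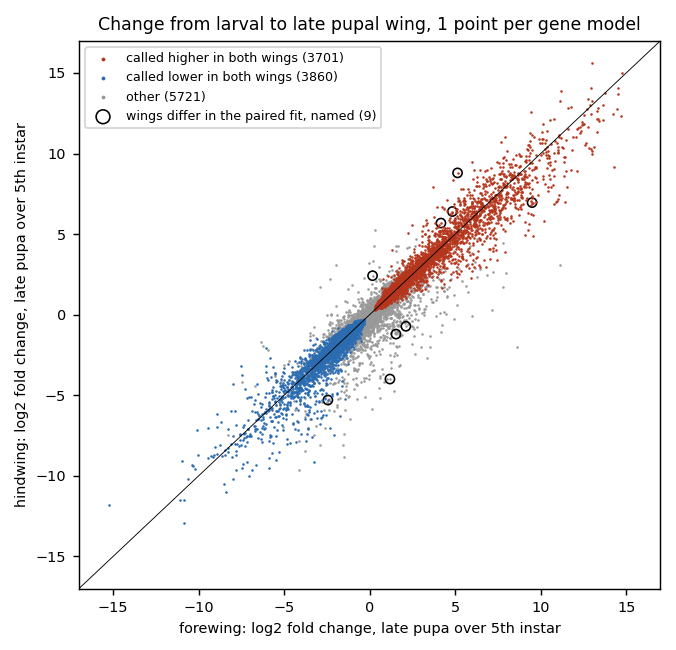
Log2 fold change of late pupa over 5th instar in hindwings (vertical axis) against forewings (horizontal axis), 1 point per tested model, with the line of equal change. The 3701 models called higher and 3860 called lower in both wings lie along the line, and the 9 circled models differed between wings in the fit that pairs them.

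Under TMM factors, increases reached larger sizes than decreases. Among the 3701 models called higher in both wings, the median log2 fold change was 2.51 in forewings and 2.50 in hindwings. Among the 3860 called lower it was −1.68 and −1.62, and over all tested models −0.07 and −0.11. With at least 2 on the log2 scale in both wings there were 2119 models that were higher and 1334 that were lower. With at least 5 there were 781 and 180, and with at least 10 there were 76 and 5. Where a stage held 0 counts the fitted size is no bound. With such models set at a floor of 3 counts over the group, the counts of higher and lower models were 2118 and 1328 at 2 or more, 753 and 141 at 5 or more, and 69 and 5 at 10 or more. That floor is 0.105 to 0.110 CPM in late and 0.0421 to 0.0469 CPM in larval groups, so decreases from a given level had less room. With library totals the counts of higher and lower models were 1478 and 2940 at 2 or more, 589 and 322 at 5 or more, and 47 and 8 at 10 or more, so the order at 2 or more turned and the others did not. Median levels over both wings were 29.7 CPM in the late pupa and 3.70 CPM in the larva for the models called higher, and 7.01 and 23.8 CPM for those called lower. The median span of the models was 7309 bases for those that were higher, 5735.5 for those that were lower and 6181 for all tested.

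Whether more models rose or fell changed with the scaling and with the libraries kept. Under TMM factors 48.7% of forewing and 47.9% of hindwing calls were higher in the late pupa. With DESeq2 size factors the median change over all tested models lay 0.15 higher in the forewing and 0.14 higher in the hindwing on the log2 scale. With them forewings had 4422 higher and 3811 lower models, and hindwings 4304 and 3864. With library totals alone the median log2 fold change was −0.96 in forewings and −0.997 in hindwings. On that scale forewings had 2463 higher and 6892 lower models, and hindwings 2414 and 7020. The TMM factors were computed against the late pupal hindwing library 3. Without that library forewings had 4403 higher and 3891 lower models, and hindwings 4090 and 3537. Past 2-fold, library totals called 1809 forewing models higher and 4648 lower, and 1729 hindwing models higher and 4708 lower. Each log2 fold change is therefore relative to the TMM factors, and with library totals the median lay 0.89 lower in both wings.

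Transcripts at the top of the late pupal range held a share of counts that the larval leaders did not reach. The 10 most abundant models took 27.7%, 33.6% and 31.3% of the counts in late forewings, against 9.62%, 9.47% and 9.14% in larval forewings. In hindwings they took 26.8%, 30.8% and 28.8% in the late pupa, against 8.46%, 9.03% and 8.49% in the larva. No late library overlapped a larval one. The difference was 21.5 percentage points in forewings and 20.2 in hindwings, and an exact two-sided permutation test gave p = 0.1 in each wing, the smallest that 3 against 3 libraries allow. To reach 50% of the counts took 57 to 87 models in late forewings and 87 to 104 in late hindwings. In the larva it took 401 to 425 in forewings and 438 to 488 in hindwings. At the stages between, the top 10 took 14.7% to 21.9% in prepupal and 22.8% to 27.4% in 72 h libraries. There, 50% of the counts took 60 to 179 models in the prepupa and 72 to 145 at 72 h. Larva and late pupa mostly did not share their leading models: of the top 10, forewings shared 1 and hindwings 2, and of the top 100, 22 and 20.

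The model with the most counts in the late pupa was 000001F:4800240-4804348. It stood at 86304, 107592 and 101828 CPM in late forewings, against 2.05, 25.5 and 2.13 CPM in larval forewings. In hindwings it stood at 78753, 79709.9 and 73154 CPM in the late pupa, against 8.49, 30.2 and 13.1 CPM in the larva. The late libraries lay close together, while among larval libraries those numbered 2 were highest in both wings. The log2 fold change was 13.28 ± 2.21 in forewings and 12.13 ± 2.13 in hindwings (SE; edgeR adjusted p = 4.06e-05 and 7.31e-05). Without larval replicate 2 it was 15.51 in forewings and 12.79 in hindwings.

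The second and the sixth most abundant late models lie near each other on contig 000021F. The second, 000021F:1183430-1184569, stood at 44049, 86039 and 81061 CPM in late forewings, against 1.71, 13.1 and 1.75 CPM in larval forewings. Late hindwings held 53467, 78929 and 87223 CPM of it, against 5.41, 14.4 and 6.34 CPM in larval ones. The sixth, 000021F:1171187-1173474, stood at 15676 ± 7565 CPM in late and 1.44 ± 1.51 CPM in larval forewings (SD, n = 3). Both were lowest in late library 1 of each wing and far above every larval library. Their log2 fold changes were 13.64 ± 1.85 and 13.40 ± 1.71 in forewings, and 13.03 ± 1.81 and 12.01 ± 1.63 in hindwings (edgeR adjusted p from 1.87e-06 to 5.46e-06). Without larval forewing replicate 2 the forewing values were 15.29 and 14.75.

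The other 3 late leaders were also scarce in the larva. The model 000090F:179684-181693, whose span overlaps another, stood at 64257 ± 9312 CPM in late and 6.18 ± 8.19 CPM in larval forewings, and at 54514 ± 10894 CPM in late and 12.2 ± 7.48 CPM in larval hindwings (SD, n = 3). For 000282F:365304-368722 the late and larval levels were 17052 ± 4913 and 2.21 ± 1.698 CPM in forewings, and 15681 ± 2481 and 12.7 ± 14.8 CPM in hindwings. The highest forewing levels in the larva were those of 000019F:1917711-1926121, at 32417, 28537 and 25369 CPM in late forewings, against 30.9, 52.8 and 44.2 CPM in larval forewings. In hindwings that model stood at 26218, 16560.3 and 15539.8 CPM in the late pupa, against 5.66, 20.3 and 30.5 CPM in the larva. Its log2 fold changes, 9.40 ± 0.97 and 10.01 ± 0.99, are the smallest of these 6, and it was already at 1651 ± 533 CPM in prepupal forewings. Those of 000090F:179684-181693 were 13.34 and 12.13, and 15.42 in forewings without larval replicate 2. Those of 000282F:365304-368722 were 12.92 and 10.27, with 13.68 in forewings without larval replicate 2 and 11.87 in hindwings without larval replicate 3. Adjusted p-values of these 3 models lay between 8.52e-08 and 6.02e-06 (edgeR).

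Together, 40 models had a mean above 1000 CPM over the late libraries and below 20 CPM over the larval ones. They held 29.7% to 35.9% of the counts of a late library, against 0.0171% to 0.0450% of the counts of a larval library. The limits that chose these models make a wide gap between the 2 stages certain. In between, forewings held 3.32% to 4.09% in the prepupa and 0.377% to 1.31% at 72 h, without overlap. Hindwings held 1.47% to 1.83% in the prepupa and 0.439% to 1.499% at 72 h. Their larval counts were not spread evenly over libraries. Larval forewing library 2 was the highest of its group for 32 of the 40, and larval hindwing library 2 for 27 and library 3 for the other 13. What lies behind these low larval counts was not tested. Without both larval libraries numbered 2, a choice made after seeing the data, forewings had 4026 higher and 3658 lower models. Hindwings had 4011 and 3614. Leaving out only larval forewing library 2 gave 3830 and 4000 in forewings. Leaving out only larval hindwing library 2 gave 3727 and 4080 in hindwings. With all libraries kept and 72 h forewing library 3 as TMM reference, forewings had 4365 and 3864 and hindwings 4284 and 3883. Against the reported fit, the median log2 fold change lay 0.12 and 0.15 higher without both libraries, and 0.12 and 0.14 higher with that reference. What turned the split was not tested.

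Of the 6 most abundant larval models, 4 fell in both wings, 1 was called higher in hindwings and 1 was not called, and 5 of the 6 still had late means of at least 932 CPM in each wing. The model 000105F:377520-379220, first in the larva, stood at 14001, 17648 and 13040.1 CPM in late and 14286, 14592 and 12839.8 CPM in larval forewings. Its hindwing values were 15464, 15465 and 12163 CPM in the late pupa, against 11614, 14106 and 11449.7 CPM in the larva. The groups overlap in both wings, and neither log2 fold change, 0.10 ± 0.23 and 0.21 ± 0.23, was called (edgeR adjusted p = 0.721 and 0.429). With library totals it was called lower in both wings (edgeR adjusted p = 0.000809 and 0.00303), and the DESeq2 Wald test called it higher in hindwings (0.36, adjusted p = 0.0231). Of the other 5 larval leaders, 000091F:270035-271426 fell to 6424 ± 633 CPM in late forewings, against 12735 ± 1008 CPM in larval ones. Its log2 fold changes of −0.99 ± 0.24 and −0.999 ± 0.24 are close to those of 000115F:851400-870770, at −1.06 ± 0.24 and −0.91 ± 0.24. The model 000059F:1590299-1602566 fell further, with −1.77 ± 0.22 in forewings and −1.73 ± 0.22 in hindwings (adjusted p of these 3 from 1.51e-06 to 0.00307, edgeR). For 000017F:1694097-1697395 only the hindwing was called, at 0.58 ± 0.18 (adjusted p = 0.0104) against 0.41 ± 0.18 in forewings (adjusted p = 0.0557). Its forewing value was called higher without late forewing library 3 and in the fits of 12 and of 6 libraries. The same held with DESeq2 size factors and with another TMM reference (edgeR adjusted p from 0.0123 to 0.0440 over these fits). The DESeq2 Wald test also called its forewing value higher (adjusted p = 9.65e-08). Its hindwing call ended without larval hindwing library 1, without a filter on low counts and with library totals, which turned both wings to lower in the late pupa. No difference between wings was called for it (0.16 ± 0.26, adjusted p = 1, edgeR). The fourth to fall, 000014F:1675881-1678464, is described with the firmest decreases.

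The firmest increases were in transcripts scarcely counted in the larva. They were ranked by the smaller wing value of the log2 fold change less 2 SE, among 2346 models with at least 10 CPM in the late pupa and 10 larval counts in each wing, a choice that itself used this comparison. The first was 000383F:322193-323813, a model of 1621 bases. Its late forewings stood at 742, 5516 and 6907 CPM, against 0.0683, 0.275 and 0.172 CPM in larval forewings. Its late hindwings stood at 850.2, 6152 and 6415 CPM, against 0.248, 0.389 and 0.331 CPM in larval hindwings. Late library 1 of both wings was well below the other late libraries and still far above the larva. The log2 fold change was 14.50 ± 1.32 in forewings and 13.70 ± 1.28 in hindwings (SE; edgeR adjusted p = 3.04e-08 and 4.29e-08), and prepupal and 72 h means were at most 3.64 CPM.

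The next 2 reached high levels before the late stage. Model 000077F:1778459-1783827 held 2669, 2409 and 1944 CPM in late forewings, against 0.0683, 0.962 and 0.201 CPM in larval forewings. Hindwing values were 2065, 2142 and 1369 CPM in the late pupa, against 0.348, 1.01 and 0.165 CPM in the larva. Its 72 h means, 3027 CPM in forewings and 4879.5 CPM in hindwings, were above its late means. Model 000206F:52781-56031 held 1145, 1327 and 1241 CPM in late forewings, against 0.341, 0.779 and 0.0862 CPM in larval forewings. In hindwings its late values of 1565, 1529 and 1543 CPM lay within a few percent of each other, against 0.298, 0.857 and 0.331 CPM in the larva. It was at 953 ± 614 CPM in prepupal forewings and 163 ± 32.8 CPM in prepupal hindwings, and near 1 CPM at 72 h (0.731 and 0.904). The log2 fold changes were 12.42 ± 0.98 and 11.76 ± 0.96 for the first, and 11.61 ± 0.88 and 11.54 ± 0.88 for the second, forewing before hindwing (edgeR adjusted p from 2.98e-09 to 7.71e-09). Without larval replicate 2 of the wing they were 13.81 and 12.74 for the first, and 12.64 and 12.21 for the second.

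A return to near the larval level at 72 h was also seen for 000224F:180711-188761. It stood at 423, 418 and 597 CPM in late forewings, against 0.0683, 0.596 and 0 CPM in larval forewings. Late hindwings held 521, 402 and 649.96 CPM, against 0.0497, 0.506 and 0.0551 CPM in the larva. Its prepupal means were 298 CPM in forewings and 196 CPM in hindwings, and its 72 h means 0.462 and 0.308 CPM. Larval library 2 held most of its larval counts in both wings. Its log2 fold change was 11.08 ± 0.95 in forewings and 11.14 ± 0.95 in hindwings (edgeR adjusted p = 1.39e-08 and 1.30e-08). Without larval replicate 2 of the wing it was 13.87 and 13.02, and without larval forewing replicate 3 it was 10.32.

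Long models on contigs 000038F and 000087F, both of which overlap another model, were abundant at the late stage alone, with prepupal and 72 h means of at most 12.5 CPM. Model 000038F:1859029-1893463 held 868, 756 and 852 CPM in late forewings, against 0.273, 0.367 and 0.431 CPM in larval forewings. In late hindwings the values were 1147, 855 and 1146 CPM, against 0.397, 0.584 and 0.496 CPM in the larva. Its replicates lie close together at both stages, and its log2 fold changes were 11.09 ± 0.89 and 11.02 ± 0.88 (edgeR adjusted p = 5.53e-09 and 5.94e-09). Model 000087F:19369-61690 held 1271, 646 and 875 CPM in late forewings, against 0, 0.412 and 0.0287 CPM in larval forewings. Its hindwing values were 2268, 785 and 1167 CPM in the late pupa, against 0.248, 0.779 and 0.0551 CPM in the larva. Here late library 1 was highest in both wings and larval library 2 highest among larvae. Its log2 fold changes were 12.54 ± 1.36 and 11.81 ± 1.30 (edgeR adjusted p = 2.56e-07 and 3.12e-07). They were 14.90 and 13.04 without larval replicate 2 of the wing, and 11.90 in forewings without larval replicate 3.

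The last of these 8 besides 000021F:1183430-1184569 was 000001F:5012251-5016902. It stood at 2785, 5115 and 3149 CPM in late forewings, against 0.341, 0.825 and 0.201 CPM in larval forewings. Late hindwings held 10327, 14112 and 10467 CPM, against 0.596, 0.7399 and 0.661 CPM in the larva. Every late hindwing value was above every late forewing value, while larval values overlap. Its log2 fold change was 14.07 ± 1.96 in hindwings and 12.97 ± 1.90 in forewings (edgeR adjusted p = 5.36e-06 and 9.77e-06). The difference between wings, 1.10 ± 1.82, was not called (adjusted p = 1; 1.07 ± 0.47 and 0.462 in the fit that pairs wings). Without larval forewing replicate 2 the forewing value was 13.74.

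**Figure D2:**
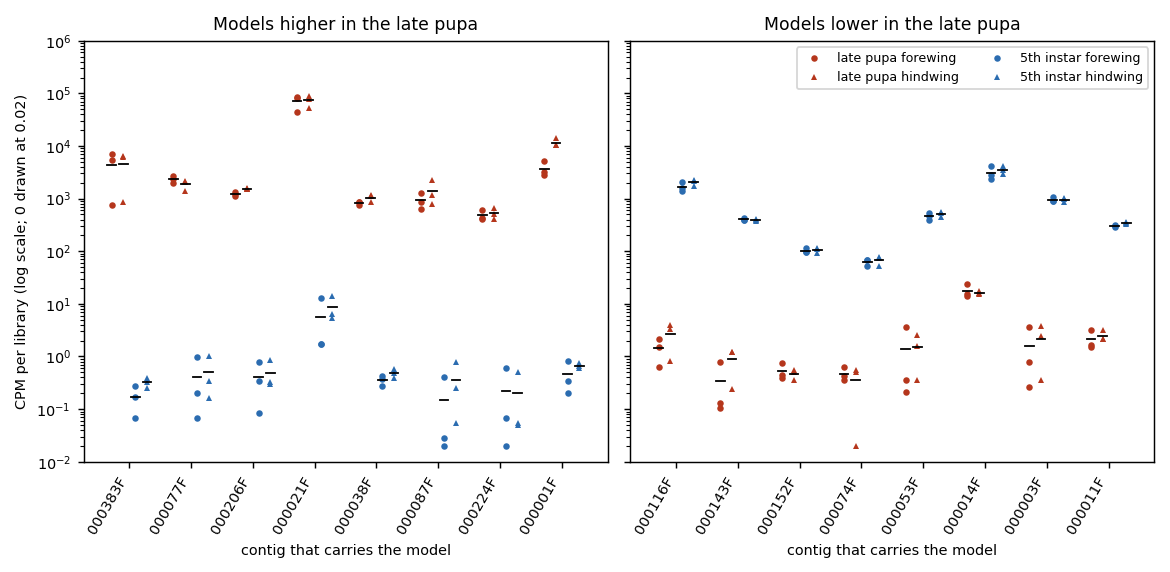
CPM per library on a log axis for the 8 models with the firmest increases (left) and the 8 with the firmest decreases (right), with late pupal libraries in red, larval libraries in blue and black bars at group means of 3 libraries. The rule chose models whose stages do not overlap, so the gap between red and blue is given by the choice, and the spread within each colour is what differs among models.

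The firmest decreases were smaller in log2 fold change than the firmest increases. They were ranked in the same way among 2610 models with at least 10 CPM in the larva and 10 late pupal counts in each wing. A given number of counts over a group stands for more CPM in the late pupa than in the larva. The rule thus leaves a decrease less room than an increase, and how far this made the difference in size was not tested. The first was 000116F:193666-199686, at 2.18, 0.64001 and 1.49 CPM in late forewings, against 2043, 1608 and 1384 CPM in larval forewings. Its hindwings stood at 3.38, 3.92 and 0.831 CPM in the late pupa, against 2267, 2150.5 and 1751 CPM in the larva. Larval libraries of a wing lay within 1.5-fold of each other, and no late value came near them. Log2 fold changes were −10.20 ± 0.97 in forewings and −9.55 ± 0.94 in hindwings (edgeR adjusted p = 5.00e-08 and 7.90e-08). Most of the decrease was in place by the prepupa, at 26.5 and 8.72 CPM, with higher means at 72 h of 160.1 and 95.5 CPM, forewing before hindwing.

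The model 000143F:829672-834949 followed. It stood at 0.128, 0.107 and 0.788 CPM in late forewings, against 394, 428 and 388 CPM in larval forewings. Its hindwings stood at 1.24, 1.21 and 0.237 CPM in the late pupa, against 384, 413 and 374 CPM in the larva. The larval values were nearly equal across all 6 libraries, while late forewing library 3 held most of the late forewing counts. Its log2 fold change was −10.05 ± 1.01 in forewings, −11.64 without late forewing replicate 3, and −8.74 ± 0.94 in hindwings (edgeR adjusted p = 1.02e-07 and 2.35e-07).

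The lowest adjusted p-values of the 8 decreases belong to 000152F:372291-385497 and 000074F:1571377-1580748. The first stood at 0.384, 0.747 and 0.438 CPM in late forewings, against 97.9, 95.7 and 114 CPM in larval forewings. In hindwings the first stood at 0.563, 0.503 and 0.356 CPM in the late pupa, against 113, 92.1 and 112 CPM in the larva. Both models held steady replicates, and the second was at about the same level in all 6 larval libraries, from 52.6 to 76.9 CPM. Its late values were 0.641, 0.427 and 0.3501 CPM in forewings and 0.563, 0.503 and 0 CPM in hindwings. The log2 fold changes were −7.58 ± 0.49 and −7.77 ± 0.50 for the first and −7.07 ± 0.47 and −7.52 ± 0.49 for the second, forewing before hindwing (edgeR adjusted p from 4.07e-10 to 6.17e-10). Without late hindwing replicate 3, which held 0 counts of the second, its hindwing value was −6.85.

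Replicates were less even for 000053F:1475592-1488722 and 000003F:5477416-5496176. The first stood at 3.59, 0.213 and 0.3501 CPM in late forewings, against 393, 460.03 and 525 CPM in larval forewings. Hindwings stood at 2.59, 1.61 and 0.356 CPM in the late pupa, against 441, 560.2 and 541 CPM in the larva. Late library 1 was highest in both wings, and the larval range is far above it. Log2 fold changes were −8.45 ± 1.15 in forewings and −8.39 ± 1.14 in hindwings (edgeR adjusted p = 4.21e-06 and 4.20e-06). Without late replicate 1 it was −10.61 and −8.99, and in hindwings −7.80 without late replicate 3.

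The second, 000003F:5477416-5496176, stood at 0.769, 3.63 and 0.263 CPM in late forewings, against 913, 1052 and 896 CPM in larval forewings. Late hindwings stood at 2.48, 3.72 and 0.356 CPM, against 1011, 1002 and 854 CPM in the larva. Late library 2 was highest in both wings. This model held its larval level in the prepupa, with 906 CPM in the forewing and 889 CPM in the hindwing, and was at 7.15 and 2.199 CPM at 72 h. Its log2 fold change was −9.26 ± 1.43 in forewings and −8.75 ± 1.39 in hindwings (edgeR adjusted p = 1.71e-05 and 2.47e-05). Without late replicate 2 it was −10.91 and −9.39, and in hindwings −8.13 without late replicate 3.

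The remaining decreases were 000014F:1675881-1678464 and 000011F:4180022-4184211. The first, which is also a larval leader, stood at 24.2, 15.5 and 14.003 CPM in late forewings, against 4123, 2820.1 and 2310.2 CPM in larval forewings. Its late hindwings stood at 17.3, 15.8 and 15.3 CPM, against 4214, 3566 and 2912 CPM in the larva. In the prepupa its hindwing mean of 2223 ± 1151 CPM was above its forewing mean of 376 ± 233 CPM, a stage at which the wings were not compared here. For the second, late levels were 2.103 ± 0.911 CPM in the forewing and 2.49 ± 0.623 CPM in the hindwing, against 303 ± 7.75 and 344 ± 16.4 CPM in the larva (SD, n = 3). The log2 fold changes were −7.43 ± 0.73 and −7.78 ± 0.74 for the first and −7.14 ± 0.69 and −7.11 ± 0.69 for the second, forewing before hindwing (edgeR adjusted p from 5.15e-08 to 7.31e-08).

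Some models were counted at one of the stages alone. In all 6 larval libraries 57 tested models held 0 counts, of which 45 were called in both wings, and 10 reached a mean of 10 CPM in the late pupa. In all 6 late libraries 63 models held 0 counts, of which 35 were called in both wings, and 0 reached 10 CPM in the larva. The highest mean was 308 CPM for the first kind and 5.21 CPM for the second. Among all 13282 tested models, 7561 were called alike in both wings, 27.9% higher and 29.1% lower. The numbers called within the sets with 0 counts are therefore not read as a result about them. A count of 0 allows up to 3 counts over a group, or 0.105 CPM in late forewings, 0.110 in late hindwings, 0.0421 in larval forewings and 0.0469 in larval hindwings, and covers counting error only.

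The 4 most abundant models without larval counts included 3 that differed widely among late replicates. Model 000474F:5373-15852 held 51.1, 274 and 511 CPM in late forewings and 49.4, 367 and 594 CPM in late hindwings, at least 6623-fold and 7181-fold higher than in the larva. Late levels of 000499F:198474-207732 were 2.82, 119 and 87.3 CPM in forewings and 3.604, 223 and 99.96 CPM in hindwings, at least 1655-fold and 2318-fold higher. Those of 000097F:522332-524512 were 8.71, 136 and 159 CPM and 3.04, 86.1 and 103 CPM, at least 2405-fold and 1366-fold higher. In each of these 3, late library 1 was the lowest of its group in both wings. Without late library 3 the bounds of 000474F:5373-15852 were 3859-fold in forewings and 4443-fold in hindwings, and without late library 2 those of 000499F:198474-207732 were 1070.2-fold and 1104-fold. The fourth, 000624F:13304-17375, had even late replicates, with 33.3, 40.2 and 39.03 CPM in the forewing and 15.9, 22.6 and 23.3 CPM in the hindwing, at least 892-fold and 439-fold higher than in the larva. All 4 were called in both wings (edgeR adjusted p from 9.82e-08 to 0.00227) and held at most 10 counts over 3 libraries in any prepupal or 72 h group. They were chosen by the same values that were tested, so these calls are not separate support. The same holds for the models without late pupal counts named next. Leaving out 1 larval library, which raises the floor, made these bounds 1.26 to 1.95 times smaller.

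Of the models without late pupal counts, 000236F:716916-724213 had the most larval CPM. It stood at 0 in all 6 late libraries, against 5.67, 6.19 and 5.34 CPM in larval forewings and 4.67, 4.75 and 4.63 CPM in larval hindwings. It was at least 54.7-fold lower in late forewings and at least 42.5-fold lower in late hindwings (edgeR adjusted p = 9.08e-06 and 1.47e-05), and its span overlaps another model. The next 2, 000031F:449772-452642 and 000061F:1731782-1735439, drew most of their larval counts from library 3. Larval values of 000031F:449772-452642 were 2.12, 0.0917 and 14.2 CPM in forewings and 0.199, 1.79 and 10.6 CPM in hindwings, and library 3 was highest in both wings. Those of 000061F:1731782-1735439 were 0.751, 0.0917 and 10.9 CPM and 0, 2.38 and 10.6 CPM, again highest in library 3. Both calls of each ended in the fit of 12 libraries, with edgeR adjusted p from 0.0523 to 0.0869. The calls of 000061F:1731782-1735439 also ended without larval library 3 of the wing (adjusted p = 0.172 in forewings and 0.0780 in hindwings), and without late forewing library 2 or 3 or any late hindwing library (0.0508 to 0.0571). Model 000008F:2085687-2091187 held 2.32, 0.504 and 0.258 CPM in larval forewings and 2.73, 6.74 and 10.4 CPM in larval hindwings, and was at least 9.801-fold and 60.02-fold lower in the late pupa (edgeR adjusted p = 0.00659 and 0.0002398). Without larval forewing library 1 its forewing bound was 3.64-fold, and leaving out 1 late library made each of these bounds 1.38 to 1.67 times smaller.

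A minority of the models called alike in both wings had means that moved in 1 direction through all stages. The midpoint between the larval and late mean log2 CPM of both wings was used to place each change, as a description of the 7561 models called in both wings. Of the 3701 that were higher, 1675 (45.3%) were past the midpoint in the prepupa, 675 (18.2%) first at 72 h, and 1351 (36.5%) in the late pupa alone. Of the 1675, 818 had crossed back by 72 h, which is 22.1% of the 3701. The stage of the highest mean was the late pupa for 2357 (63.7%), the prepupa for 681 and 72 h for 663. In 660 models (17.8%) the mean was never below that of the stage before, a count in which any drop, however small, breaks the course. With a margin of 1 on the log2 scale, 355 models (9.59%) went beyond the larval level the other way.

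More of the decreases than of the increases were past the midpoint in the prepupa, a difference that was not tested. Levels were scaled by TMM factors, which were 0.557 to 0.979 in prepupal and 1.64 to 1.80 in larval libraries. The placement was not repeated with another scaling. Of the 3860 that were lower, 2262 (58.6%) were past the midpoint in the prepupa, 726 (18.8%) first at 72 h, and 872 (22.6%) in the late pupa alone. By 72 h, 615 of the 3860 (15.9%) had been past the midpoint and crossed back. The lowest mean was in the late pupa for 2461 (63.8%), at 72 h for 869 and in the prepupa for 530. In 943 models (24.4%) the mean was never above that of the stage before, again without a margin. With a margin of 1 on the log2 scale, 243 models (6.30%) went beyond the larval level the other way.

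**Figure D3:**
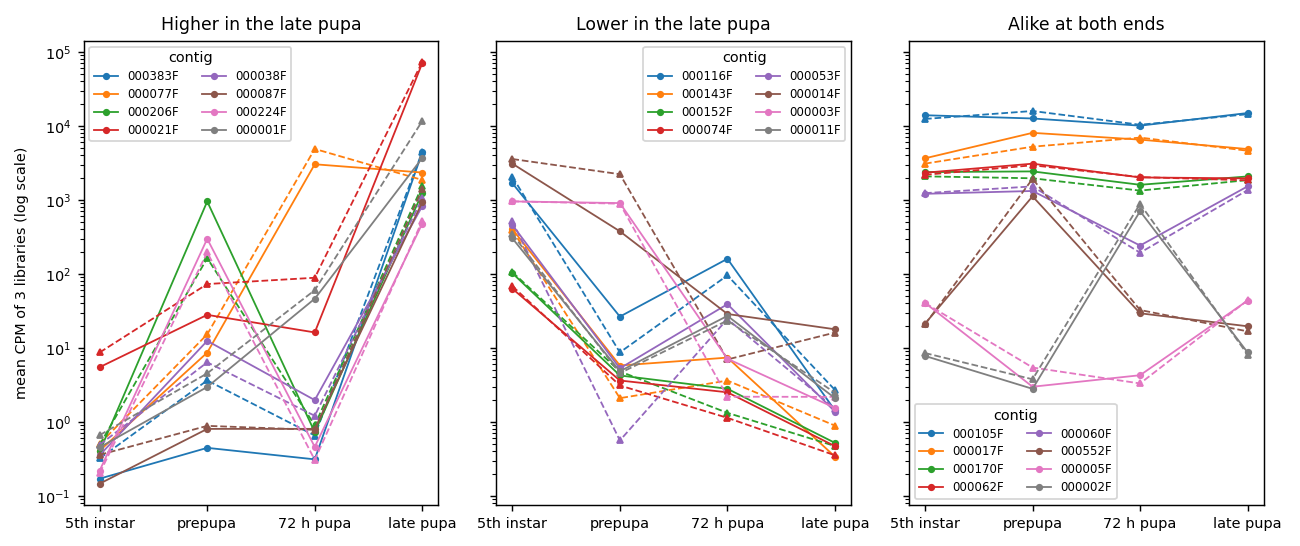
Mean CPM of 3 libraries on a log axis at each of the 4 stages, in time order, for the 8 firmest increases, the 8 firmest decreases and 8 models alike at both ends, with forewings as solid and hindwings as dashed lines. The models on 000206F and 000224F are high in the prepupa, near 1 CPM or below at 72 h and high again in the late pupa.

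A larva and a late pupa can match while the stages between do not. By the size and its error, 1933 models (14.6% of those tested) were steady under TMM factors, with the absolute log2 fold change plus 2 SE below 1 in both wings. Library totals moved the median log2 fold change over all tested models by −0.89 in both wings, and the steady set was not formed again with them. Of these, 471 (24.4%) lay at least 1 on the log2 scale from the mean of both ends in the prepupa or at 72 h, and 86 (4.45%) at least 2. Model 000552F:155107-170800, whose span overlaps another, peaked in the prepupa. Its forewing means along the stages were 21.3 CPM in the larva, 1117 CPM in the prepupa, 29.4 CPM at 72 h and 19.6 CPM in the late pupa, and its hindwing means 20.8, 1924, 32.6 and 16.8 CPM. Model 000002F:4943237-4950735 peaked at 72 h, with forewing means in the same order of 7.81, 2.81, 703 and 8.703 CPM, and hindwing means of 8.54, 3.78, 883 and 8.13 CPM. The reverse held for 000005F:4372135-4394556, which also overlaps another model and was lower between the ends, with forewing means of 40.7, 2.996, 4.29 and 43.7 CPM. These 3 were chosen after their values were seen.

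The most abundant steady models, chosen by rule, were 000105F:377520-379220 and 000017F:1694097-1697395, which are also larval leaders, and 3 others. Model 000170F:140508-144276 held 2076, 1815 and 2330.4 CPM in late and 2524, 2108 and 2488 CPM in larval forewings, with log2 fold changes of −0.19 ± 0.20 in forewings and −0.17 ± 0.20 in hindwings. Model 000062F:1499420-1505484 held 1952 ± 146 CPM in late and 2329 ± 69.1 CPM in larval forewings (SD, n = 3), with log2 fold changes of −0.26 ± 0.18 and −0.25 ± 0.18. Neither was called in either wing, but with library totals both were called lower in the late pupa, at −1.09 and −1.15 in forewings and −1.06 and −1.14 in hindwings (edgeR adjusted p from 4.44e-06 to 0.000451). The model 000060F:734479-747766 also matched at both ends, at 1524 ± 129 CPM in late and 1208 ± 172 CPM in larval forewings, but stood at 242 ± 123 CPM at 72 h. With library totals as the only scaling, the direction of 000060F:734479-747766 turned to lower in the late pupa in both wings.

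Models that rose lay beside each other in places. Runs were formed of at least 4 neighbouring tested models on a contig, all called in both wings in 1 direction with at least 2 on the log2 scale in each. Of the 2119 models that were higher by that much (16% of those tested), 409 (19.3%) lay in 86 runs. Of the 1334 that were lower by that much (10%), 92 (6.90%) lay in 20 runs. How many runs such shares give without any clustering was not tested.

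The run of increases with the most models held 11 over 255 kb of contig 000001F, from position 4797167 to 5052577, and 1 of them overlaps another model. Its summed level was 105652 CPM ± 11702 in late and 36.4 CPM ± 11.99 in larval forewings (SD, n = 3). In hindwings it was 92508 CPM ± 5530.3 in the late pupa and 46.6 CPM ± 12.2 in the larva. Most of that came from the late leader 000001F:4800240-4804348, followed by 000001F:5012251-5016902 and 000001F:4865571-4871907. The last of these stood at 3231 CPM in late and 25.4 CPM in larval forewings. The others were modest in the late pupa, and the first, 000001F:4797167-4797945, was called on 4 late forewing and 3 late hindwing counts against 0 in the larva. Neighbours also peaked at other stages. Model 000001F:4814900-4819909 held 7.199 CPM in late and 0.285 CPM in larval forewings, but 10661 CPM at 72 h, and 000001F:4797987-4799918 was at 60.99 CPM in prepupal forewings.

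**Figure D4:**
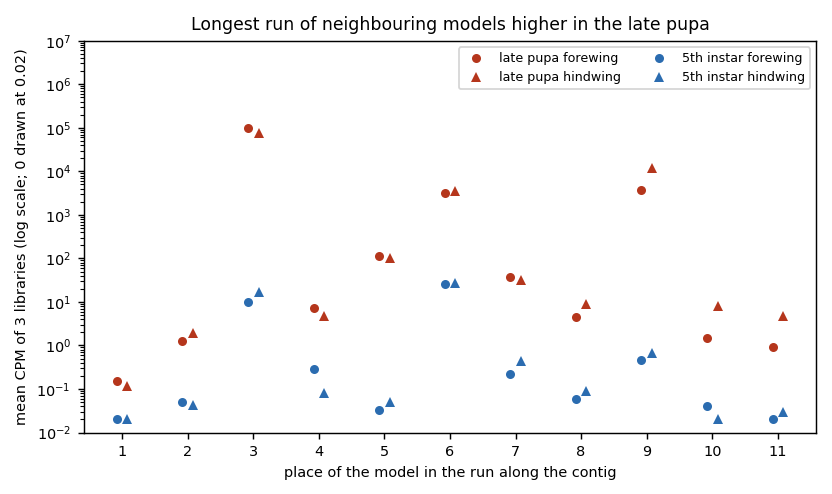
Mean CPM of 3 libraries on a log axis for the 11 neighbouring models of the run of increases with the most models, in their order along the contig, with late pupal groups in red and larval groups in blue. The models in places 3, 6 and 9 stand above 1000 CPM in the late pupa, and the larval means of all 11 lie below 30 CPM.

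In another run, 7 models lay within 38.0 kb of contig 000019F, from position 1837687 to 1875694. Every one of them was higher in the prepupa than in the late pupa. Their summed level was 1453 CPM ± 406 in late and 18.02 CPM ± 0.367 in larval forewings, with 2459.9 CPM in the prepupa and 36.6 CPM at 72 h. In hindwings it was 1039 CPM ± 238 in the late pupa and 16.9 CPM ± 4.06 in the larva. The median log2 fold change of the 7 was 8.46 in forewings and 7.42 in hindwings. Whether these neighbours are near-identical copies that share reads was not tested. A run of 8 on contig 000084F, over 466 kb, had smaller changes, with medians of 4.62 and 3.62.

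Runs of decreases were fewer. The one with the most models held 8 over 96.5 kb of contig 000034F, from position 1179836 to 1276315, with summed levels of 35.2 CPM ± 1.33 in late and 186 CPM ± 17.8 in larval forewings. In hindwings the levels were 32.8 CPM ± 2.803 in the late pupa and 197 CPM ± 28.02 in the larva. Its median log2 fold changes were −2.40 and −2.54, and 2 of its models overlap each other. The 7 models of a run on 000088F had medians of −3.39 and −3.32, and the 5 of a run on 000136F, over 768 kb, −4.83 and −4.19, forewing before hindwing.

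The change from larva to late pupa was tested for a difference between wings, as the hindwing change minus the forewing change. In the fit without pairing, edgeR called 0 models (0%), while 341 (2.57%) had an unadjusted p below 0.05 and the DESeq2 Wald test called 14, 3 with a higher and 11 with a lower hindwing change. Wings of the same stage and number deviated together, so they were also paired. With that block 29 models (0.218%) were called, 11 with a higher and 18 with a lower hindwing change. In 18 of the 29 the gap between wings was wider in the larva, and in 11 in the late pupa. The 8 models named here are the outermost on each side in the paired fit whose mean log2 CPM is at least 1, a choice made after their values were seen, and their paired differences are a description.

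Among models whose hindwing change was higher, 000064F:661706-664685 had the largest difference. It stood at 173, 169 and 80.7 CPM in late hindwings and 114, 80.5 and 30.98 CPM in late forewings. In the larva its hindwings held 0.447, 0.389 and 0.0551 CPM and its forewings 2.32, 2.38 and 1.72 CPM. Larval wings did not overlap, with the hindwing lower. Late values overlap, and library by library the late hindwing was higher. The log2 fold change was 8.80 ± 0.68 in hindwings and 5.14 ± 0.56 in forewings, a difference of 3.81 ± 0.36 in the paired fit (edgeR adjusted p = 0.000977) and 3.66 ± 0.77 without pairing (adjusted p = 0.332).

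A larval gap that narrowed was seen for 000129F:89294-91831. Its late values were 23.5, 18.8 and 18.4 CPM in hindwings and 30.5, 23.1 and 23.8 CPM in forewings. Its larval values were 3.03, 5.14 and 3.14 CPM in hindwings and 21.8, 28.1 and 19.1 CPM in forewings. Stages overlap in forewings and lie apart in hindwings. The log2 fold change was 2.42 ± 0.33 in hindwings and 0.17 ± 0.31 in forewings, where it turned to −0.72 with library totals. The paired difference was 2.27 ± 0.30 (edgeR adjusted p = 0.00844) and the unpaired one 2.25 ± 0.45 (adjusted p = 0.283).

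The other 2 on this side had smaller differences. Model 000093F:1500830-1508393 held 90.5 ± 34.1 CPM in late hindwings and 95.1 ± 27.5 CPM in late forewings, and at 1.05 ± 0.423 and 3.31 ± 1.49 CPM in the larva (SD, n = 3), with a paired difference of 1.55 ± 0.27 (edgeR adjusted p = 0.04295). For 000009F:2347780-2359181, whose span overlaps another model, the late levels were 516, 255 and 399.6 CPM in hindwings and 265, 131 and 206 CPM in forewings. The larval levels of this model were 7.65, 3.97 and 11.2 CPM in hindwings and 12.6, 4.996 and 15.9 CPM in forewings. Library by library, the hindwing was higher in the late pupa and lower in the larva, with a paired difference of 1.48 ± 0.24 (adjusted p = 0.0274). The unpaired adjusted p of both was 1.

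On the other side, 000078F:105509-119301 had the largest difference of the 29. It stood at 0.563, 4.73 and 8.43 CPM in late hindwings and 239, 83.8 and 85.8 CPM in late forewings. In the larva its hindwings held 86.1, 59.2 and 73.8 CPM and its forewings 62.7, 58.02 and 59.3 CPM. The wings overlap in the larva and lie far apart in the late pupa. The hindwing change was −4.00 ± 0.71 (edgeR adjusted p = 8.64e-05) and the forewing change 1.18 ± 0.63 (adjusted p = 0.107). The forewing change was called under the replicate block (edgeR adjusted p = 0.0466) and in the fit of the 6 forewing libraries (0.0399). The difference was −5.02 ± 0.74 in the paired fit (adjusted p = 0.0155) and −5.18 ± 0.94 without pairing (adjusted p = 0.188). Without pairing it was −4.50 without late forewing replicate 1 and −5.93 without late hindwing replicate 3. The same libraries moved the single changes, to 0.49 in forewings without late forewing replicate 1 and −4.63 in hindwings without late hindwing replicate 3.

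A late gap was also seen for 000017F:2036946-2042642. Its late values were 3.94, 4.73 and 5.698 CPM in hindwings and 43.1, 16.5 and 14.4 CPM in forewings, without overlap. Its larval values were 189.99, 218 and 159 CPM in hindwings and 142, 148 and 111 CPM in forewings. It fell in both wings, by more in the hindwing, with log2 fold changes of −5.30 ± 0.41 and −2.44 ± 0.36 (edgeR adjusted p = 4.23e-09 and 9.77e-06). The paired difference was −2.69 ± 0.36 (adjusted p = 0.00876). The forewing value was −3.12 and the unpaired difference −2.18 without late forewing replicate 1, against −2.85 ± 0.50 with it.

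For the last pair the gap between wings was wider in the larva. Model 000022F:1228522-1231525 held 54.8 ± 13.5 CPM in late hindwings and 58.4 ± 16.3 CPM in late forewings (SD, n = 3). In larval hindwings it held 28 counts, or 0.497, 0.506 and 0.275 CPM, and in larval forewings 5 counts, or 0.0683, 0.0917 and 0.0574 CPM. It rose in both wings, with log2 fold changes of 6.95 ± 0.35 in hindwings and 9.50 ± 0.41 in forewings (edgeR adjusted p = 3.24e-11 and 4.59e-12) and a paired difference of −2.42 ± 0.35 (adjusted p = 0.0155). Model 000033F:365482-370066 held 1.01, 0.503 and 9.26 CPM in late hindwings and 2.43, 1.39 and 11.7 CPM in late forewings. In the larva its hindwings held 4.57, 6.23 and 6.78 CPM and its forewings 0.751, 2.15 and 0.718 CPM. Library by library, its hindwing was lower in the late pupa and higher in the larva. Late library 3 was far above the others in both wings, and the late level was called different from the larval one in neither wing (adjusted p = 0.492 in hindwings and 0.0539 in forewings). Its paired difference was −3.04 ± 0.45 (adjusted p = 0.01896). Its unpaired difference of −2.84 ± 1.28 was −5.06 without late hindwing replicate 3, −1.37 without late forewing replicate 3 and −3.55 without larval forewing replicate 2. Without late hindwing replicate 3 the hindwing change was −2.81 and was called (adjusted p = 0.0240). The forewing change was 0.64 without late forewing replicate 3, and it was called without larval replicate 2 (2.82), late replicate 1 (2.44) or late replicate 2 (2.55), with adjusted p from 0.0302 to 0.0445. It peaked in the prepupa, with 214 CPM in the hindwing and 447 CPM in the forewing.

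**Figure D5:**
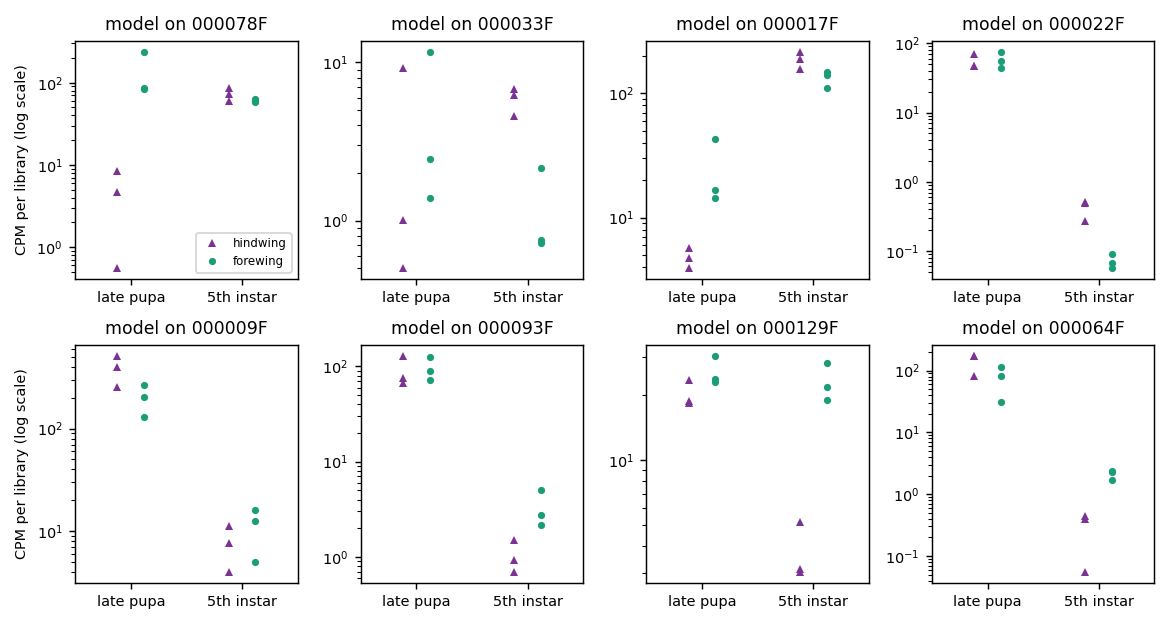
CPM per library on log axes for the 8 models outermost in the paired test of the wing difference, with hindwings in purple and forewings in green, ordered from the lowest to the highest hindwing change relative to the forewing. The models on 000078F and 000017F have hindwing points below all forewing points in the late pupa, and those on 000129F and 000064F have them below in the larva.

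The model called in opposite directions in the 2 wings was 000739F:62225-69642. It stood at 0.788, 1.21 and 0.9497 CPM in late hindwings, against 1.54, 1.87 and 3.47 CPM in larval hindwings. In forewings it stood at 1.92, 3.84 and 4.29 CPM in the late pupa, against 0.751, 0.596 and 2.04 CPM in the larva. Levels were low and the stages overlap in forewings but not in hindwings. Its log2 fold change was −1.21 ± 0.50 in hindwings and 1.54 ± 0.47 in forewings (edgeR adjusted p = 0.0417 and 0.008696), with a paired difference of −2.82 ± 0.38 (adjusted p = 0.00876) and −2.74 ± 0.69 without pairing (adjusted p = 0.664). The hindwing call ended without any of late hindwing libraries 1, 2 and 3 or larval hindwing library 3 (adjusted p from 0.0537 to 0.200). It also ended with DESeq2 size factors, with another TMM reference, in the fit of 12 libraries and under the replicate block (edgeR adjusted p from 0.0708 to 0.0761), and in the DESeq2 Wald test (adjusted p = 0.0603), and without both larval libraries numbered 2 (0.0566, edgeR). The forewing call ended with library totals, at 0.65 (adjusted p = 0.260, edgeR). In forewings the change was 2.30 without larval replicate 3, and the unpaired difference then −3.52.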

How the data were processed

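RNA of whole forewings and hindwings was sequenced at 4 stages, 3 libraries per stage and wing. The deposited table holds raw counts per gene model. TopHat, bedtools and DESeq2 are listed in the submitters' processing notes, without their roles. Aligner settings, strand handling and genome build are not given there. Reads that fit several models, and those of the 3767 models that overlap another, may be split between them. The 72 h libraries were matched to columns headed d3 in the deposited counts.

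Models were tested with edgeR 4.0.16 (filterByExpr with a minimum count of 10 and a total of 15, TMM factors, quasi-likelihood fit of 24 libraries with a mean for each of 8 groups, glmTreat for 2-fold) in R 4.3.3, with Benjamini-Hochberg adjustment over 13282 models and calls below 0.05. The standard error is the absolute log2 fold change over the square root of F. The common biological coefficient of variation was 38.7%. DESeq2 1.42.0 and limma 3.58.1 served alternatives and dependencies, and the code was tested on simulated data. Wings of the same stage and number were paired in a second fit of the wing difference, because their deviations from group means correlated at 0.602 to 0.765 in 6 of 6 pairs. No library was dropped or imputed.

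Models are named by these rules: the 8 highest and 8 lowest by the absolute log2 fold change less 2 SE in the more cautious wing, among models called alike in both wings whose stages do not overlap. Further names are the 4 most abundant models with 0 counts at the other stage, the 6 most abundant per stage, the 5 most abundant steady models, models called in opposite directions and the 3 runs with the most models per direction. The unpaired edgeR fit called no model for the wing difference, so the outermost 4 per side came from the paired fit. Members, lists and rules were chosen with earlier results of these data known. Gene names, sequences and 14 annotation libraries were not used here. Of the alternatives, 20 were planned and 2 added.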

Additional observations from a re-analysis of the deposited data

Results flagged for a closer look

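The change from larva to late pupa differed between wings in the paired edgeR fit for 9 models named in the text, given here as the hindwing minus the forewing log2 fold change. It was higher in hindwings for 000064F:661706-664685 (3.81), 000129F:89294-91831 (2.27), 000093F:1500830-1508393 (1.55) and 000009F:2347780-2359181 (1.48). It was lower in hindwings for 000078F:105509-119301 (−5.02), 000033F:365482-370066 (−3.04), 000739F:62225-69642 (−2.82), 000017F:2036946-2042642 (−2.69) and 000022F:1228522-1231525 (−2.42). Their adjusted p-values lay between 0.000977 and 0.04295, and in the fit without pairing the edgeR adjusted p of each of the 9 was above 0.05. The DESeq2 Wald test, without pairing, called 4 of them: 000064F:661706-664685 (adjusted p = 0.00465), 000129F:89294-91831 (0.00251), 000078F:105509-119301 and 000017F:2036946-2042642 (6.64e-05 each).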

How the results depend on the processing

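Counts of models called, and past 2-fold, in either direction together stayed within 1.5 times the reported ones under every alternative run, except the wing difference, with 29 models under the replicate block of paired wings and 14 by the DESeq2 Wald test against 0. By direction they did not: with library totals forewings had 2463 higher calls against 4050 and 4648 lower ones past 2-fold against 2206, and hindwings 2414 against 3965 and 4708 against 2240. Replicate numbers did not pair stages (r of −0.0153 to 0.0501), and with that number as a replicate block 7682 models were called in forewings and 7469 in hindwings. Leaving out 1 library at a time gave 7758 to 7830 calls in forewings (4533 to 4642 past 2-fold), 7627 to 7866 in hindwings (4424 to 4602), 0 to 0 for the wing difference, and a difference in the share of the top 10 models of 20.1 to 23.1 points in forewings and 19.2 to 21.2 in hindwings. Directions turned in 4 named models with small changes. With library totals 000105F:377520-379220 was at −0.80 in forewings and −0.68 in hindwings, 000017F:1694097-1697395 at −0.48 and −0.32, 000060F:734479-747766 at −0.56 and −0.76, and 000129F:89294-91831 at −0.72 in forewings. Leaving out a library gave −0.0491 to 0.18 for 000105F:377520-379220 in forewings (−0.0491 without late replicate 2) and −0.000857 to 0.27 for 000060F:734479-747766 in hindwings (−0.000857 without larval replicate 3). Library totals moved the median log2 fold change by −0.89, and less for the named models with 0 counts at one stage; other causes were not tested.

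Depth limits models near 0: 3 counts over a group are 0.0421 to 0.110 CPM. The split of higher and lower calls depends on scaling, and late library 1 of each wing was the lowest of its group for several leading models. Whether libraries are separate animals is not stated, and no model has a gene name here.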

Other observations

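Another 20 of the 29 models called for the wing difference in the paired fit were not among the 9 with the values given so far. The 000168F:929684-945384 model rose in both wings, to 272 ± 41.1 CPM in late hindwings and 384 ± 40.6 CPM in late forewings, against 10.9 ± 3.901 and 4.38 ± 1.69 CPM in the larva (SD, n = 3), with a paired difference of −1.82 ± 0.22 (edgeR adjusted p = 0.006004). The most abundant in the late pupa was 000060F:1221882-1245189, with 602 ± 81.9 CPM in the hindwing and 1997 ± 38.8 CPM in the forewing, against 80.4 ± 23.5 and 89.4 ± 15.5 CPM in the larva (−1.56 ± 0.21, edgeR adjusted p = 0.00876). In contrast, 000108F:1305270-1306691 rose by more in hindwings, to 509.6 ± 159.7 CPM in late hindwings and 438 ± 121 CPM in late forewings, against 16.9 ± 1.997 and 30.5 ± 1.85 CPM in the larva (1.06 ± 0.15, edgeR adjusted p = 0.0106).

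Contig 000739F, which holds the model called in opposite directions, holds a second of the 29, 000739F:25155-36401, at 1.49 ± 0.557 CPM in late hindwings and 3.25 ± 0.468 CPM in late forewings, against 10.03 ± 12.6 and 6.41 ± 9.12 CPM in the larva. Contig 000206F holds a pair, 000206F:87233-108065, which overlaps another model, and 000206F:806180-821111. Their paired differences were −1.80 ± 0.16 and −1.47 ± 0.24, and neither was called between stages in either wing. These models were picked after their values were seen, and how often 29 models would share contigs was not tested.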
